A study of Mus musculus with 6 samples.

Results

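Rab proteins are small GTPases that mark the membranes of a cell and direct vesicles between them. The genes described here are the mouse Rab genes found by symbol, that is, every entry whose name is Rab followed by a number and at most a letter and a digit. Of 23282 gene entries, 59 matched, and the 42 with a summed count of at least 60 over all libraries are described. The lowest of these was Rab39 with 72 counts, and the highest left out was Rab30 with 18. Messenger RNA was measured in RAW 264.7 cells, a mouse macrophage line that forms multinucleated osteoclasts, by QuantSeq, which sequences the 3′ ends of transcripts. All 6 samples came from day 5 of osteoclast differentiation, of which 3 carried the treatment label CPN and 3 were labelled control. The series title names a 60 kDa chaperonin, a protein class that helps other proteins fold, and no genotype or other agent is given. The labels give no source, dose or time of addition for the chaperonin. They do not state that replicates are separate cultures, and p-values therefore cover the spread among these 6 samples alone, some of which may be technical.

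A Rab binds GTP on its target membrane, recruits effectors that tether, move or fuse vesicles, and is then extracted into the cytosol in its GDP form. Guanine nucleotide exchange factors (GEFs) load GTP, GTPase-activating proteins (GAPs) trigger its hydrolysis, and lipid tails added by a prenyltransferase anchor the protein. In osteoclasts, vesicles of late endosomal and lysosomal kind fuse with the bone-facing membrane to form the ruffled border, through which acid and proteases are released, and Rab7 is known to act in this step. In macrophages, Rabs order the maturation of phagosomes.

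The promoters of 3 Rab genes are shown because these were the Rab genes whose difference passed the test in the full fit and in each of the 6 fits that left out 1 library. Each runs from 250 bases before to 50 after the RefSeq transcript start on build GRCm38.p6. Capitals mark matches on either strand to CCAAT and to the GC box GGGCGG. The promoter of Rab32, which was higher in CPN, lies at chr10:10558158-10558457 on the minus strand. Those of Rab31 and Rab1b, which were lower in CPN, lie at chr17:65772703-65773002 and chr19:5106947-5107246, both on the minus strand.
Rab32: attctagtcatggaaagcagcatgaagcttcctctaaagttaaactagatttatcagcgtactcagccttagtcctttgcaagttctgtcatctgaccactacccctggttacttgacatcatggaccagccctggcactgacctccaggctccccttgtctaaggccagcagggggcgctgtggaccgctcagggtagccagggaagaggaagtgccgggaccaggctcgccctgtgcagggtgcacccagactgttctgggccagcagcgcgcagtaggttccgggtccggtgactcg
Rab31: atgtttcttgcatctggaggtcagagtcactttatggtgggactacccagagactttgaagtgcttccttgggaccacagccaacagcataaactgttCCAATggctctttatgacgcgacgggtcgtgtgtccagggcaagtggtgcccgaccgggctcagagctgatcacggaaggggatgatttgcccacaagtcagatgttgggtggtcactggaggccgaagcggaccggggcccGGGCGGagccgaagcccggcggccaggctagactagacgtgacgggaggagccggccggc
Rab1b: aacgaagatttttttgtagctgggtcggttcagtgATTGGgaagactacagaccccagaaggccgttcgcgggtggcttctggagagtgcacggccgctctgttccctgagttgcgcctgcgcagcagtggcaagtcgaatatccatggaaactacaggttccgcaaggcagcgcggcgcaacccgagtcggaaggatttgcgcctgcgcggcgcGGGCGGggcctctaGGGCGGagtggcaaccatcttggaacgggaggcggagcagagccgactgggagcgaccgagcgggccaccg

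The Rab31 window held CCAAT from base -152 to base -148 and a GC box from -10 to -5, counted from the transcript start without a base 0. In the Rab1b window, CCAAT lay on the other strand from -215 to -211, and GC boxes lay from -35 to -30 and from -21 to -16. The Rab32 window held neither. The RefSeq table matched 38 of the 42 Rab genes. Of these, 27 (71.1%) held a GC box in the first promoter listed, against 35.9% of 27025 genes, and 19 (50%) held CCAAT, against 37.9%. The median GC content was 63.0% for the Rab genes and 52.7% for all genes. All genes here means every gene of the RefSeq table, not filtered by count as the Rab genes were. The E-box CACGTG was in 4 (10.5%) of the Rab genes and 7.24% of all genes. The AP-1 motif TGANTCA was in 1 (2.63%) and 7.93%. An interferon-stimulated response element was in 1 (2.63%) and 3.49%, and a kappa-B-like motif in 2 (5.26%) and 1.62%. These Rab counts are too small to set against the shares of all genes. None of the last 4 motifs was in the windows printed above. In the window of Rab28, whose gene was also higher in CPN, the kappa-B-like match overlapped a GC box. These matches describe letters in a window and show no binding.

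Libraries held 7957228 to 9713938 counts. Values below are CPM, counts brought to a common library size, after scaling by the trimmed mean of M-values (TMM), with errors as SD over 3 libraries. In this unit 3 counts correspond to between 0.294 and 0.393. The summed CPM of the macrophage markers lay between 2892 and 3191 in CPN and between 2238 and 2828 in control, with none of the 9 at 0 in every library, although Aif1 was under 10 CPM throughout. The macrophage markers went both ways, since Adgre1, Itgam and Cd14 rose 3.45-, 3.94- and 3.42-fold and Spi1 fell 1.51-fold (edgeR adjusted p at most 0.0334), while Csf1r, Cd68, Lyz2, Aif1 and Ptprc did not pass. The osteoclast markers summed to between 901 and 1423 CPM in CPN and between 3918 and 4078 CPM in control, although of these 10 Calcr, the calcitonin receptor gene, had counts in 1 control library alone. The granulocyte list of 6 summed to between 18.0 and 34.6 CPM in CPN and to at most 0.117 CPM in control, and S100a8 held nearly all of it, while Elane and Camp were at 0 in every library. The stromal list of 7 summed to between 14.8 and 19.5 CPM in CPN and between 0.0981 and 9.34 CPM in control, and Dcn, the decorin gene, gave 10.4 ± 2.35 CPM of it in CPN and had a count of 0 in control. Lymphocyte markers, 4 of 7 of them at 0 throughout, summed to at most 2.62 CPM in CPN and 0.785 CPM in control. Endothelial and epithelial markers, 2 of 6 at 0 throughout, summed to at most 1.44 CPM in CPN and 1.87 CPM in control. The part of these marker differences in the Rab results was not tested. In bulk samples, fewer cells of a type and less RNA per cell cannot be told apart.

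The question was which Rab genes had other levels in CPN cells than in control cells. At an adjusted p of 0.05 by edgeR's quasi-likelihood test, 3 of 42 Rab genes were higher in CPN and 3 were lower. That is 14.3% of the Rab genes, against 14.0% of all 11092 genes tested, of which 7.62% (845) were higher and 6.39% (709) lower. With libraries scaled by their totals alone, 690 of all genes were higher and 914 lower, and 2 and 3 of the Rab genes. For 13 Rab genes (31.0%), 9 higher and 4 lower in CPN, all CPN values lay to one side of all control values, against 32.6% of all tested genes. Both shares were near the background. The 13 include Rab33a and Rab27a, which met the minimum of 60 counts through 1 group alone. Their separation was therefore partly fixed by that minimum. The count of 6 became 3 without CPN 2, control 1 or control 3, and 7 without control 2. With a minimum of 120 counts in place of 60, which leaves out Rab33a, 2 Rab genes were higher and 3 lower. The median log2 fold change of the family was -0.02, against -0.01 for all tested genes, with 21 genes above 0 and 21 below. The 42 genes summed to 2988, 2771 and 3337 CPM in CPN 1 to 3, against 3046, 3166 and 3041 CPM in control 1 to 3. The CPN libraries spread more widely than the controls in this sum, and the groups overlapped. The mean sum in CPN was 0.983 times that in control, or 0.906 times when libraries were scaled by their totals alone.

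**Figure D1:**
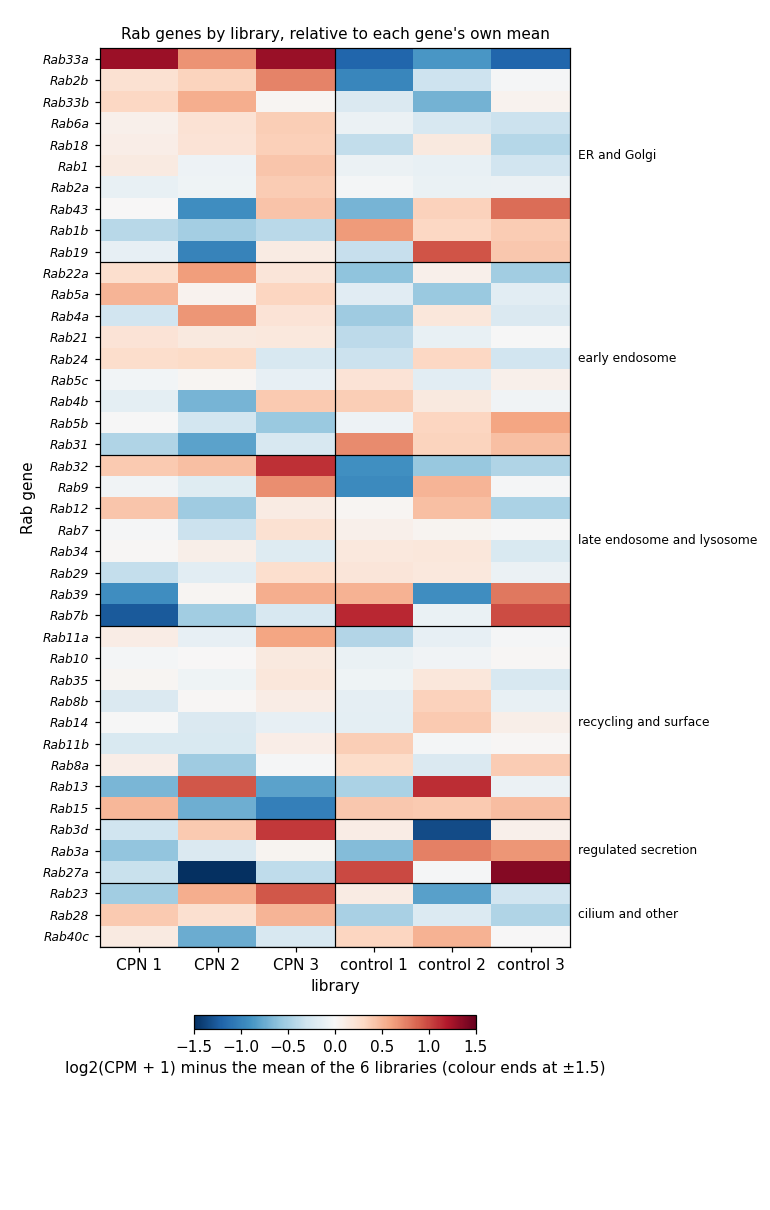
Level of each of the 42 Rab genes in each library, as log2(CPM + 1) minus the gene's mean over the 6 libraries, with CPN 1 to 3 left of control 1 to 3 and genes grouped by role. Most rows show no split between the groups, and the clear splits include Rab33a, Rab32, Rab31, Rab1b and Rab7b.

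Rab32 rose most clearly. Rab32 serves lysosome-related organelles such as melanosomes, and also mitochondria. It had 55.6, 58.2 and 91.4 CPM in CPN 1 to 3, against 21.9, 28.0 and 30.6 CPM in control 1 to 3. Every CPN library lay above every control, and CPN 3 stood highest. The log2 fold change was 1.35 ± 0.263 (SE), a 2.55-fold rise (edgeR adjusted p = 0.00416). Leaving out any 1 library gave adjusted p between 0.00271 and 0.0254. Its gene lies on chromosome 10, 10545002 to 10558265 (GRCm38). The closest relative of Rab32, Rab38, had a count of 0 in every library, so Rab32 was the member of this pair with measurable RNA at this depth. Rab38 is known to share its melanosome role.

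Rab31 fell in the early endosomal set. Rab31 carries cargo between the trans-Golgi network and endosomes and is present on macrophage phagosomes. It had 119.8, 93.8 and 139.8 CPM in CPN 1 to 3, against 271, 208 and 225 CPM in control 1 to 3. The highest CPN library stayed well under the lowest control. The log2 fold change was -0.99 ± 0.195 (SE), or 1.99-fold lower (edgeR adjusted p = 0.00438). The gene lies on chromosome 17, 65651729 to 65772752.

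Rab1b fell in the secretory pathway. With Rab1, it controls transport from the endoplasmic reticulum (ER) to the Golgi. It had 47.8, 44.9 and 48.1 CPM in CPN 1 to 3, against 100.6, 79.7 and 84.2 CPM in control 1 to 3. The CPN libraries were close together and all below the controls. The log2 fold change was -0.91 ± 0.201 (SE), or 1.88-fold lower (edgeR adjusted p = 0.00886, and up to 0.0498 with a library left out). The gene lies on chromosome 19, 5099205 to 5107072.

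Rab7b, which acts between late endosomes and the trans-Golgi network and is known to restrain Toll-like receptor signalling in macrophages, was also lower. It had 19.6, 33.3 and 40.6 CPM in CPN 1 to 3, against 106.6, 44.9 and 95.95 CPM in control 1 to 3. Control 2 lay just above the highest CPN library and far below the other controls. The log2 fold change was -1.41 ± 0.339 (SE), or 2.65-fold lower (edgeR adjusted p = 0.0146). The call ended without CPN 1, CPN 2, control 1 or control 3 (the largest edgeR adjusted p was 0.0702), and without control 2 the log2 fold change was -1.69. The gene lies on chromosome 1, 131688695 to 131715439.

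Rab28 and Rab33a completed the set that rose. Rab28, known from cilia and photoreceptors, had 63.7, 57.2 and 69.1 CPM in CPN 1 to 3, against 34.0, 41.6 and 34.8 CPM in control 1 to 3. The groups were apart, with a log2 fold change of 0.78 ± 0.216 (SE) and an edgeR adjusted p of 0.0287. This call ended when any library other than control 2 was left out (edgeR adjusted p up to 0.123), and with library totals alone (0.0627). Rab33a, a relative of the Golgi protein Rab33b, had 38, 20 and 37 counts in CPN 1 to 3, against 0, 2 and 0 counts in control 1 to 3. Its 95 counts in CPN against 2 in control gave a scaled ratio of 53.6 (counting interval at 95%, 14.4 to 449). Both control counts came from control 2, and against the other controls, at a floor of 3 counts per library, Rab33a was at least 12.2-fold higher in CPN. Rab33a met the minimum of 60 counts and the low-count filter through its CPN libraries alone, so that it had to differ, and its edgeR adjusted p of 0.025 supports nothing further. It was not called without any library other than control 2. The genes of Rab28 and Rab33a lie on chromosome 5, 41624976 to 41708157, and chromosome X, 48519285 to 48530232. None of the 6 Rab genes that passed overlaps another measured gene in the GENCODE M21 annotation of GRCm38. A single fit without both control 3 and CPN 1 called Rab32 alone of the family, and 446 genes in all.

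**Figure D2:**
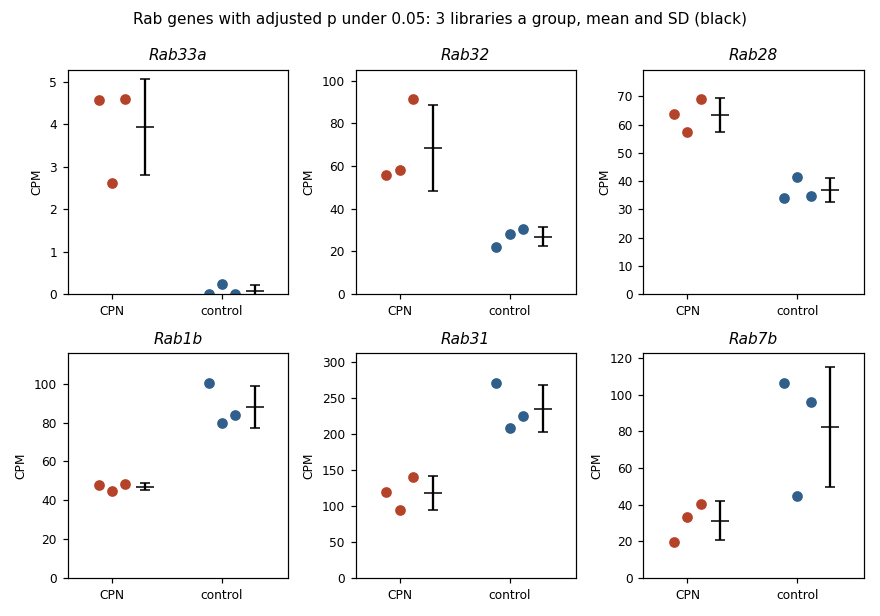
CPM (linear axis from 0) in each of 3 CPN and 3 control libraries for the 6 Rab genes that passed, with the mean and SD in black. CPN points lie above all control points for Rab33a, Rab32 and Rab28 and below them for Rab1b, Rab31 and Rab7b, where control 2 of Rab7b (44.9 CPM) comes closest to CPN.

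In the ER and Golgi set of 10 genes, Rab1b and Rab33a were the ones that passed, and the median log2 fold change was 0.37. Rab2b, a regulator of Golgi structure, had 27.8, 29.9 and 40.1 CPM in CPN 1 to 3, against 11.5, 18.8 and 23.1 CPM in control 1 to 3. The groups did not overlap, but it missed the threshold (log2 fold change 0.87 ± 0.327, edgeR adjusted p = 0.101). Rab2b overlaps Tox4 on the opposite strand. Whether strand was used in counting is not given, so reads in the shared 400 bases may not be told apart. Rab6a, which directs retrograde traffic at the Golgi, averaged 133.9 ± 14.0 CPM in CPN, against 98.6 ± 8.71 CPM in control, also without overlap (edgeR adjusted p = 0.139). Rab1 averaged 246 ± 42.7 CPM in CPN, against 195 ± 14.5 CPM in control (edgeR adjusted p = 0.267). Rab18, a Rab of the ER and of lipid droplets, averaged 101.4 ± 9.35 CPM in CPN, against 75.9 ± 18.0 CPM in control (edgeR adjusted p = 0.24), and passed in the fit without control 2 (0.0422). The fold changes of Rab2a, Rab33b, Rab43 and Rab19 had edgeR adjusted p between 0.37 and 0.718.

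Among 9 early endosomal genes Rab31 was the one that passed (11.1%, against 14.0% of all tested genes). A set of 9 is small to set against this share. Rab5, the master Rab of early endosome fusion, has 3 isoforms, and none passed. Rab5a had 29.9, 21.5 and 26.1 CPM in CPN 1 to 3, against 18.2, 13.7 and 18.4 CPM in control 1 to 3, without overlap (log2 fold change 0.63 ± 0.308, edgeR adjusted p = 0.222). It overlaps Pp2d1 on the opposite strand over 221 bases. Rab5c had 126.2, 132.9 and 119.8 CPM in CPN 1 to 3, against 150.2, 116.7 and 137.7 CPM in control 1 to 3, with full overlap (log2 fold change -0.09, 95% interval -0.48 to 0.29). Rab5b averaged 32.6 ± 6.42 CPM in CPN, against 48.9 ± 11.3 CPM in control (edgeR adjusted p = 0.174). Rab22a, the sorting endosome relative of Rab31, and Rab21, which moves integrins, were higher in all CPN libraries than in any control, with edgeR adjusted p of 0.21 and 0.357. Rab24 of autophagosome clearance and the fast recycling genes Rab4a and Rab4b had edgeR adjusted p between 0.628 and 0.764.

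In the late endosomal and lysosomal set of 8 genes, Rab32 rose, Rab7b fell and 6 did not pass. That is 25.0% called, against 14.0% of all tested genes, and 8 genes are few to set against this share. Rab7, the Rab of late endosome and lysosome fusion, had 177.8, 143.0 and 211 CPM in CPN 1 to 3, against 188.9, 185.0 and 178.2 CPM in control 1 to 3. The CPN libraries spread to both sides of the controls. The log2 fold change was -0.05 with a 95% interval of -0.45 to 0.34 (edgeR adjusted p = 0.896). Rab9, which returns mannose 6-phosphate receptors to the Golgi, had 24.8, 22.7 and 42.3 CPM in CPN 1 to 3, against 12.9, 37.0 and 25.5 CPM in control 1 to 3. Its groups overlapped widely (log2 fold change 0.26, 95% interval -0.58 to 1.09, edgeR adjusted p = 0.745). Rab34, Rab29, Rab12 and Rab39 had log2 fold changes between -0.51 and 0.01, with edgeR adjusted p of at least 0.82. Of these, Rab39 had so few counts that its interval ran from -3.45 to 2.42.

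Of 9 genes of recycling endosomes and of traffic to the surface, 0 passed by edgeR, by DESeq2 or by limma-voom, against 14.0% of all tested genes by edgeR. An unadjusted edgeR p under 0.05 was held by 0 of these 9 and by 26.3% of all tested genes. A set of 9 genes is small to set against these shares. The median log2 fold change of the set was -0.24. Rab11a, the main Rab of recycling endosomes, had 137.2, 117.0 and 191.6 CPM in CPN 1 to 3, against 93.8, 116.4 and 125.3 CPM in control 1 to 3. CPN 1 and CPN 3 were above all controls and CPN 2 was not (log2 fold change 0.41 ± 0.216, edgeR adjusted p = 0.259). Rab15, described as a brake on endocytosis in neural cells, had 42.0, 17.3 and 14.0 CPM in CPN 1 to 3, against 39.2, 39.1 and 41.0 CPM in control 1 to 3. CPN 1 matched the controls while CPN 2 and CPN 3 were low, and Rab15 passed in the fit without CPN 1 (log2 fold change -1.35, edgeR adjusted p = 0.0208, against 0.257 with all libraries). It overlaps Fntb on the opposite strand over 24949 bases. Rab13, a Rab of the route to cell junctions, had 3.84, 13.9 and 3.47 CPM in CPN 1 to 3, against 4.61, 15.8 and 6.31 CPM in control 1 to 3. One library stood high in each group, and the log2 fold change of -0.33 had an interval of -1.81 to 1.14. Rab10, which carries receptors and transporters to the surface, had the narrowest interval of the family, -0.23 to 0.41 around 0.09. Rab14, Rab8a, Rab8b, Rab11b and Rab35 had log2 fold changes between -0.30 and 0.09.

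Of the 3 genes of regulated secretion that could be described, 0 passed by edgeR, DESeq2 or limma-voom and 0 had an unadjusted edgeR p under 0.05, against 14.0% and 26.3% of all tested genes, and 3 genes are too few to set against those shares. Rab27a, which docks secretory granules, had 1.44, 0 and 1.37 CPM in CPN 1 to 3, against 5.10, 2.04 and 7.01 CPM in control 1 to 3. All CPN values were below all control values. The counts were 12, 0 and 11 against 52, 17 and 60, and the log2 fold change of -2.31 had an interval of -4.84 to 0.22 (edgeR adjusted p = 0.238). Rab27a, and Rab19 of the Golgi set, met the minimum of 60 counts through their control libraries alone. Rab3d, known for secretory vesicles of osteoclasts, had 7.2, 12.3 and 20.1 CPM in CPN 1 to 3, against 9.91, 3.0 and 9.70 CPM in control 1 to 3. CPN 1 lay between the controls (log2 fold change 0.81 ± 0.562, edgeR adjusted p = 0.412). Rab3a, a Rab of synaptic vesicles, averaged 12.6 ± 2.90 CPM in CPN, against 19.8 ± 9.25 CPM in control (edgeR adjusted p = 0.384). In the last set of 3, Rab28 rose, and Rab23, a Rab of Hedgehog signalling, and Rab40c, a subunit of ubiquitin ligases, had edgeR adjusted p of 0.422 and 0.222. The called share of this set was 33.3%, against 14.0% of all tested genes, and it too is too small to set against that share.

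Among the 17 Rab genes under 60 counts, Rab44, Rab38 and 10 others had a count of 0 in every library. Rab44 is a large Rab known from immune granules and osteoclasts. Rab20, a Rab of macrophage phagosomes, had 3, 10 and 0 counts in CPN 1 to 3 and 0 in each control. Rab30 had 18 counts, all in CPN 3. A count of 0 allows up to 3 counts, so these genes were not detectable in those libraries at this depth. Of the described genes, Rab6a, Rab7, Rab10, Rab24, Rab3a and Rab40c also overlap a measured gene on the opposite strand. Their reads may not be told apart from those of the partner gene. Gm5577, which overlaps Rab7, had 24 counts and was not tested, and none of the other partners passed.

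**Figure D3:**
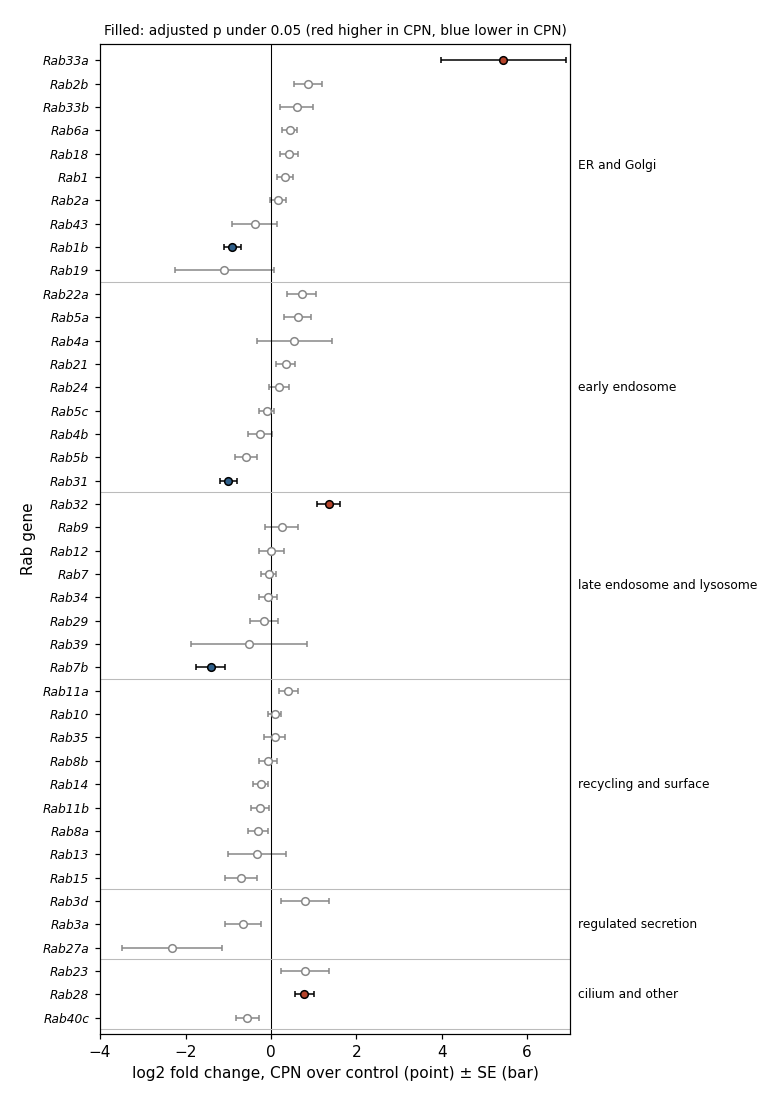
Fitted log2 fold change of CPN over control for the 42 Rab genes, grouped by role, with points for the estimate and bars for ± SE, filled where the edgeR adjusted p was under 0.05. The recycling and secretion sets hold open points alone, and the value of Rab33a, with 2 counts in control, depends on the fit's prior count.

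For closely related Rabs, the ratio of their counts within a library compares them free of library scaling. Of 7 pairs with both genes described, 4 had ratios that did not overlap between groups. No such share was computed over other gene pairs, so this count describes the 7 pairs alone. The log2 ratio of Rab1 to Rab1b was 2.33, 2.20 and 2.60 in CPN 1 to 3, against 1.03, 1.35 and 1.09 in control 1 to 3. The mean difference was 1.22, so the balance was shifted towards Rab1 in each CPN library. The log2 ratio of Rab5a to Rab5c was -2.08, -2.63 and -2.20 in CPN 1 to 3, against -3.05, -3.10 and -2.91 in control 1 to 3. For Rab11a to Rab11b it was 1.10, 0.87 and 1.24 in CPN 1 to 3, against -0.07, 0.66 and 0.72 in control 1 to 3. The Rab2a to Rab2b ratio was lower in CPN, at 2.14, 2.09 and 2.12, against 3.51, 2.73 and 2.44 in control. Of the genes in these 4 pairs, Rab5a and Rab2b overlap another measured gene on the opposite strand. How reads that align to more than 1 gene were counted is not given, which limits ratios of related genes. Without control 1 the differences for Rab11a to Rab11b and for Rab2a to Rab2b narrowed to 0.38, against 0.63, and to -0.46, against -0.77. Each of these 4 differences had p = 0.1 by a two-sided exact permutation test, the smallest that 3 against 3 samples allow, and 0.175 after Benjamini-Hochberg adjustment over the 7 pairs. The pairs Rab8a and Rab8b, Rab3d and Rab3a, and Rab4a and Rab4b overlapped, with exact permutation p of 0.6, 0.3 and 0.5.

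**Figure D4:**
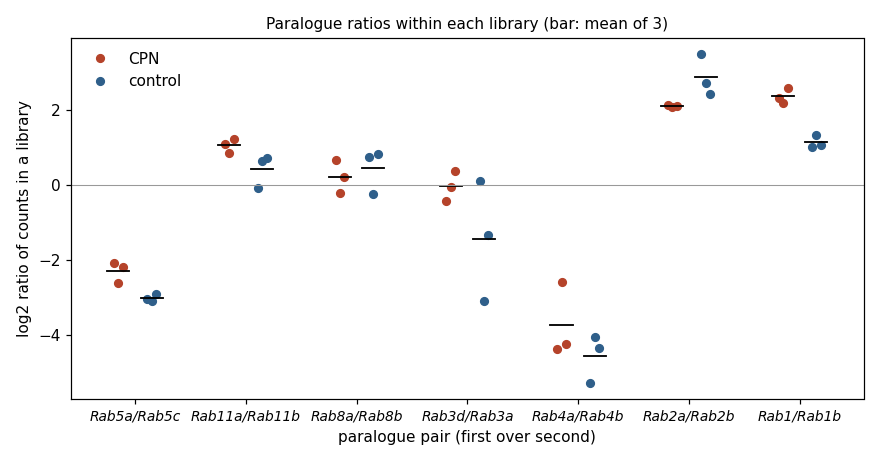
The log2 ratio of counts of 2 related Rab genes within each library, CPN left of control in each pair, with bars at the group means. The Rab1 to Rab1b ratios lie between 2.20 and 2.60 in CPN and between 1.03 and 1.35 in control.

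The proteins around the Rabs were taken from 4 lists of 181 measured entries. The partner Rabs named for them are known mainly from human proteins. Together 11 of the 158 tested were higher in CPN and 9 lower, which is 12.7%, against 14.0% of all tested genes. This count of 20 became 11 without CPN 1, 8 without CPN 2 or control 3, and 12 without control 1. With library totals alone 8 were higher and 15 lower. For the machinery that prenylates and extracts Rabs, 0 of 10 genes passed by edgeR, against 14.0% of all tested genes. By DESeq2 0 passed, by limma-voom 1 passed, and 3 had an unadjusted edgeR p under 0.05, against 26.3% of all tested genes. For 6 of the 10 (60%), 3 higher and 3 lower in CPN, the groups did not overlap, against 32.6% of all tested genes. A set of 10 genes is small to set against these shares. Fdps, which makes the precursor of the Rab lipid tail and is the target of nitrogen-containing bisphosphonates, was the gene called by limma-voom (adjusted p = 0.0375), and it also passed edgeR with no low-count filter (0.0271). It had 106.6, 55.4 and 57.8 CPM in CPN 1 to 3, against 118.1, 110.1 and 127.0 CPM in control 1 to 3. CPN 1 stood near the controls, and the edgeR adjusted p was 0.0907, or 0.011 without CPN 1. Rabggtb, the catalytic subunit of the Rab prenyltransferase, averaged 132.8 ± 12.6 CPM in CPN, against 91.3 ± 21.5 CPM in control (edgeR adjusted p = 0.11). The escort protein gene Chm and the GDP dissociation inhibitor gene Gdi2 had log2 fold changes of 0.26 and -0.29, with edgeR adjusted p of 0.607 and 0.302.

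Of 48 tested GEF genes, 4 rose and 1 fell, or 10.4%, against 14.0% of all tested genes (7.62% higher and 6.39% lower). Dennd2d, whose human protein acts on Rab9, had 127.8, 104.5 and 82.9 CPM in CPN 1 to 3, against 47.2, 56.3 and 40.7 CPM in control 1 to 3. It rose 2.19-fold, with all CPN libraries above the controls (edgeR adjusted p = 0.00495). It overlaps Cept1 and 2010016I18Rik on the opposite strand, neither of which passed. Rab3il1, a GEF of Rab8 and a partner of Rab3, had 12.7, 38.8 and 34.7 CPM in CPN 1 to 3, against 6.77, 2.04 and 8.18 CPM in control 1 to 3. It rose 5.05-fold, though CPN 1 was low and the call ended without CPN 2 or CPN 3 (edgeR adjusted p = 0.0114, at most 0.0735). Dennd5b rose 2.37-fold and Dennd4a, a GEF of Rab10, rose 2.17-fold. Rin2, a GEF of Rab5, fell 1.95-fold to 21.7 ± 2.90 CPM in CPN, against 42.3 ± 9.31 CPM in control. The calls of Dennd5b and Dennd4a ended without CPN 1, CPN 2, control 1 or control 3, and that of Rin2 without any library but control 2. Dennd4a also missed the threshold with library totals alone (edgeR adjusted p = 0.0614) and with the replicate block (0.0659). Of 9 tested subunits of TRAPP, the complex that loads Rab1 in the early secretory pathway, 0 passed by edgeR, DESeq2 or limma-voom. An unadjusted edgeR p under 0.05 was held by 0 of them. Over all tested genes 14.0% were called and 26.3% had that p, and 9 genes are few to set against these shares.

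Of 32 tested GAP genes, 5 fell and 1 rose, or 18.8%, against 14.0% of all tested genes (6.39% lower and 7.62% higher). Tbc1d2b, which binds Rab22, had 28.7, 33.3 and 30.8 CPM in CPN 1 to 3, against 67.5, 86.9 and 71.9 CPM in control 1 to 3. It fell 2.44-fold, far beyond the spread in either group (edgeR adjusted p = 0.00154, and at most 0.0113 with a library left out). Tbc1d2b overlaps Adamts7, which had 102 counts and was not tested, on the opposite strand over 6045 bases. All 3 genes of the Sgsm family fell, but none was called in every fit that left out 1 library. A family of 3 genes is too small to set against the share of all tested genes. Of 23 tested Tbc1d genes in the same list, 0 passed as higher and 2 as lower (8.70%, against 14.0% of all tested genes). Their median log2 fold change was 0.02. Sgsm1, whose protein binds Rab9, had 32.6, 30.9 and 27.9 CPM in CPN 1 to 3, against 87.3, 53.4 and 57.6 CPM in control 1 to 3 (edgeR adjusted p = 0.00911, but 0.062 without control 1). Sgsm3, a GAP of Rab5, fell 2.17-fold to 20.3 ± 5.34 CPM in CPN, against 44.2 ± 1.80 CPM in control, and its call ended without CPN 2 or control 3. Sgsm2, a GAP of Rab32 and Rab38, had 2.88, 5.63 and 5.09 CPM in CPN 1 to 3, against 17.4, 9.82 and 15.4 CPM in control 1 to 3. It fell 3.13-fold (edgeR adjusted p = 0.0447), a call that ended without any library other than control 2, with limma-voom (0.0599) and with the replicate block (0.0916). Tbc1d16, a GAP of Rab4, fell 2.0-fold to 17.8 ± 2.19 CPM in CPN, against 35.5 ± 1.05 CPM in control, and passed in the 2 fits without CPN 3 or control 2. Rabgap1l, a GAP of Rab22, rose 5.68-fold to 12.1 ± 5.25 CPM in CPN, against 2.11 ± 0.506 CPM in control, a call that ended without CPN 1, CPN 2 or control 3 and with limma-voom (adjusted p = 0.0556).

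Of 68 tested effector genes, 6 rose and 3 fell, or 13.2%, against 14.0% of all tested genes. Rab11fip1, an effector of Rab11 in recycling, had 70.6, 56.6 and 56.0 CPM in CPN 1 to 3, against 14.7, 5.27 and 15.4 CPM in control 1 to 3. It rose 5.15-fold (edgeR adjusted p = 0.000792), while the Rab11 genes themselves did not pass. It shares 3395 bases with 4933416M07Rik on the opposite strand, which was also higher (log2 fold change 2.29). Whether strand was used in counting is not given, so reads of the pair may not be told apart. Eea1, the tether that Rab5 recruits to early endosomes, had 334, 325 and 312 CPM in CPN 1 to 3, against 149, 181 and 123 CPM in control 1 to 3. It rose 2.14-fold with well separated groups (edgeR adjusted p = 0.00126). Uso1, a tether that Rab1 recruits on the way to the Golgi, had 176.8, 182.6 and 213 CPM in CPN 1 to 3, against 93.3, 96.4 and 89.9 CPM in control 1 to 3. It rose 2.05-fold (edgeR adjusted p = 0.0015). Golgb1, the giantin gene, rose 1.58-fold (edgeR adjusted p = 0.0291) and Gorasp2, a Golgi stacking protein gene, rose 1.71-fold (0.0359), and both missed the threshold with library totals alone (0.0847 and 0.0896). Golga1, Golga2, Golga4, Golga5, Gcc1, Gcc2 and Gorasp1, Golgi genes of the same list, did not pass, with log2 fold changes between -0.27 and 0.68. Rilpl2, whose protein binds phosphorylated Rab8 and Rab10, rose 1.67-fold (0.0229). The calls of Golgb1, Gorasp2 and Rilpl2 each ended without 4 or more of the 6 libraries in turn. Gorasp2 overlaps Tlk1, which did not pass, on the opposite strand over 230 bases.

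Plekhm1, a Rab7 effector that osteoclasts need for the ruffled border, fell. It had 73.9, 45.2 and 40.9 CPM in CPN 1 to 3, against 89.0, 136.0 and 99.5 CPM in control 1 to 3. CPN 1 came closest to the controls. The 2.03-fold fall had an edgeR adjusted p of 0.0196, and the call ended without CPN 2, CPN 3 or control 3 (up to 0.108). The summed osteoclast markers were likewise lower in each CPN library (901 to 1423 CPM) than in any control (3918 to 4078 CPM), and their part in this difference was not tested. Acap2, an effector of Rab35, had 93.8, 123.0 and 124.8 CPM in CPN 1 to 3, against 230, 242 and 172.7 CPM in control 1 to 3. It fell 1.89-fold, and held in each fit without 1 library (edgeR adjusted p = 0.00726, at most 0.0368). Rufy1, an effector of Rab4 and Rab14 on endosomes, fell 1.93-fold to 37.0 ± 7.87 CPM in CPN, against 71.5 ± 7.18 CPM in control, and its call ended without CPN 1, CPN 2 or control 3. Of 9 tethering genes of the Vps list, which includes the subunits that join late endosomes and lysosomes, 0 passed by edgeR, DESeq2 or limma-voom. Of these, 2 had an unadjusted edgeR p under 0.05. Over all tested genes 14.0% were called and 26.3% had that p, and 9 genes are few to set against these shares. Of the 20 regulator and effector genes that passed, 6 did so in each of the 6 fits that left out 1 library, namely Dennd2d, Tbc1d2b, Rab11fip1, Eea1, Uso1 and Acap2.

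**Figure D5:**
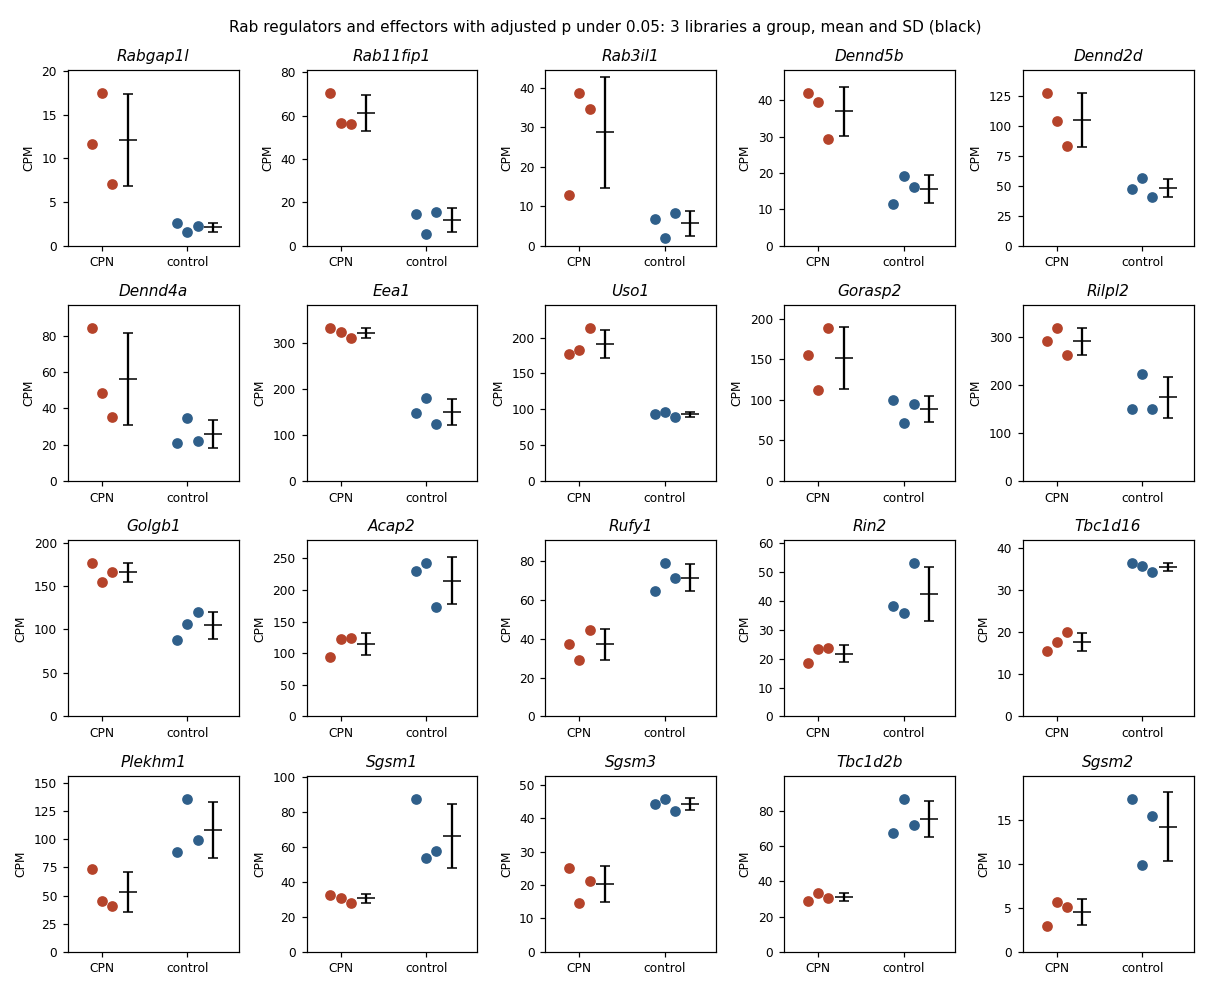
CPM (linear axis from 0) in each of 3 CPN and 3 control libraries for the 20 regulator and effector genes that passed, with the mean and SD in black, ordered from the highest fold change to the lowest. The groups do not overlap in any panel, and Dennd4a, where CPN 3 had 35.5 CPM and control 2 had 34.6 CPM, comes closest to doing so.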

How the data were processed

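The deposited values are whole-number counts per gene entry, 1 table per sample, with 3 CPN and 3 control samples grouped by their labels. Per the labels' protocols, QuantSeq libraries were made from Trizol-extracted RNA. Per the submitters' processing notes, Bowtie2, bedtools and mm10 were used. Not given in the sources used here are their versions, the gene models, whether strand was used and how multiply aligned reads were counted.

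From these counts, genes were filtered with filterByExpr (minimum count 10, minimum total 15), scaled by TMM and tested in R 4.3.3 with edgeR 4.0.16 by the quasi-likelihood test. P-values were adjusted (Benjamini-Hochberg) over 11092 genes, and all 42 Rab genes passed the filter. The fitted common biological variation coefficient was 0.355. The SE is the log2 fold change divided by the square root of F, and 95% intervals use the t distribution with the fit's degrees of freedom. Counting intervals and floors cover counting error only. Ribosomal RNA precursor Rn45s (9.04% to 16.5% of counts) stayed in the totals. Coordinates are from GENCODE M21 (GRCm38, the assembly of mm10), and promoters from RefSeq. Of the 42 genes 9 overlap another measured gene. The code was tested on simulated counts.

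The genes, role lists and tests were chosen with earlier results of these data known. Named in full were Rab genes that passed and 13 studied in osteoclasts or phagosomes, and of each regulator list up to 6 with the smallest p, with Plekhm1, Gdi2, Rabggtb and Chm. Rab1b, Rab7b, Rab28 and Rab33a came in by passing. Rab2b, Rab6a, Rab15, Rab18, Rilpl2, Golgb1, Gorasp2 and the other Golgi effectors were added after their values were seen. Alternatives were other scalings, filters and tools (DESeq2 1.42.0, limma-voom in limma 3.58.1), a test against a fold of 1.5, a replicate block, removal of Rn45s and libraries left out. Replicates of a group differed by far more than sampling noise.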

Additional observations from a re-analysis of the deposited data

How the results depend on the processing

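Of 6 Rab genes called, the count was 6 with DESeq2-type size factors, DESeq2, limma-voom, no low-count filter, a filter of 1 CPM in 3 samples or without Rn45s, and each time the same 6 genes. It was 5 with library totals alone, 5 with a minimum of 120 counts in place of 60, and 2 (Rab32 and Rab33a) against a fold of 1.5. Rab33a met the count minimum and the filter through its CPN libraries alone, so its passing under these alternatives supports nothing further. Without both control 3 and CPN 1 the count was 1 (Rab32). With 1 library left out it was 3 (without CPN 2, control 1 or control 3) to 7 (without control 2). The regulator and effector count of 20 became 6 against a fold of 1.5, 5 without both libraries, and between 8 and 26 with 1 left out. The number of Rab roles with a called gene, 4, became 2 against a fold of 1.5 and 1 without both libraries. Over all genes, the count of 1554 became 697 against a fold of 1.5, 446 without both libraries, and between 884 and 1954 with 1 left out. Under library totals alone the median over all genes was -0.13 (log2), against -0.01, the split over all genes was 690 higher and 914 lower, against 845 and 709, that of the regulators and effectors was 8 and 15, and the summed Rab ratio was 0.906, against 0.983. With 1 library left out, 10 Rab genes changed sign (Rab2a, Rab7, Rab8b, Rab9, Rab12, Rab13, Rab34, Rab35, Rab39 and Rab43), and 0 of these had passed. The log2 fold change of Rab7 ran between -0.20 and 0.089 (above 0 without CPN 2), that of Rab13 between -1.27 and 0.39 (above 0 without control 2), and that of Rab9 between -0.076 and 0.66 (-0.076 without CPN 3 and -0.062 without control 1). The cause of these shifts was not tested. The replicate numbers share no stated origin. For same-numbered libraries, each gene's deviation from its group mean of log2(CPM + 1) was correlated over the tested genes. These correlations were -0.074, 0.014 and 0.039. With the replicate block, 4 Rab genes passed, without Rab28 (edgeR adjusted p = 0.0612) and Rab33a (0.0846), and Golgb1 also missed the threshold (0.0577), while 18 regulators and effectors and 1326 genes in all passed. Depth limits the genes with the fewest counts, such as Rab4a, whose 95% interval ran from -1.36 to 2.45 (log2).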
